A study of Homo sapiens with 6 samples.

Results

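The CTCF regions described here carried a peak in both of the mutant clones D3 and E4 of the colon cancer line HCT-116 and no peak in the wild-type (WT) line. They were chosen by merging the D3, E4 and WT peak lists wherever peaks overlapped by 1 bp or more on chromosomes 1 to 22, and keeping each merged region with a D3 and an E4 peak and without a WT peak. There were 5225 such regions among 58351 merged regions, or 8.95%. With chromosomes X and Y the same rule gave 5605. Because the members were selected on the peak calls themselves, the absence of WT peaks and the presence of clone peaks are given as description only. Of the 36917 regions called in both clones, these 5225 made up 14.2% (exact Clopper-Pearson 95% interval 13.8% to 14.5%), and every share below is set against that figure.

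CTCF ChIP-seq, in which DNA bound by the protein is pulled down with an antibody and sequenced, was done in untreated HCT-116, an established human colon cancer line. The 3 CTCF libraries came from clone D3 and clone E4, both labelled as carrying a CTCF mutation, and from wild-type cells. Whether that mutation changes the protein or a site that it binds was not examined here. Each clone is a single derived line. The 3 matching libraries made without antibody were not analysed here. There was 1 library per population and no replicate, so differences have no replicate check and no test was made; intervals cover counting error only and treat neighbouring regions as independent.

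CTCF is a zinc-finger protein that binds DNA directly and, together with the ring-shaped cohesin complex, holds the bases of chromatin loops and separates neighbouring regulatory domains. Many of its strong sites are occupied in most cell types, whereas weaker sites vary more between cells. Gene deserts are long stretches without protein-coding genes, and many lie beside genes for developmental regulators or for adhesion molecules of neurons.

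The 3 lists differed in length and in strength. D3 had 57935 peaks, E4 39434 and WT 38645, and the median −log10 q, the peak caller's significance score, was 8.66 in D3, 7.71 in E4 and 5.33 in WT. The read depth behind the lists is unknown. The remaining merged regions were 31692 with peaks from all 3 libraries, 3905 with D3 and WT peaks, 127 with E4 and WT peaks, and 15153, 838 and 1411 with peaks of D3, E4 or WT alone. Whether the weaker WT list has a part in the size of the group was not tested; with each list reduced to its strongest 38645 peaks, 2621 regions met the rule, or 8.06% of those with a peak from each clone.

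The regions without a WT peak were narrow and weak in both clones. Their median width was 723 bp, with quartiles of 563 and 925 bp, against 1199 bp for regions of all 3 libraries, 774 bp for regions of D3 and WT and 443 bp for regions of D3 only. Their median −log10 q was 5.32 in D3 and 2.74 in E4, against 16.5 and 9.79 in regions of all 3 libraries. Median fold enrichment over the caller's background, the authors' own value for each peak, was 4.96 in D3 and 4.14 in E4, against 8.98 and 7.13. As a percentile rank within each clone's own list, the median member stood at 34.5 in D3 and at 15.3 in E4. The D3 rank was the higher one in 82.6% of members and in 78.1% of regions of all 3 libraries; within the weakest 3 deciles of strength, defined below, it was 83.7% and 90.2%.

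The rule keeps only regions in which clone peaks were merged, so some closeness of the D3 and E4 peaks is fixed by it, for members and for regions of all 3 libraries alike. The centres of the D3 and E4 peaks lay a median of 80 bp apart (quartiles 37 and 147 bp), about as close as in regions of all 3 libraries, where the median was 88 bp. The D3 peak was the wider one in 78.1% of members, with a median of 664 bp against 434 bp in E4. The narrower peak lay wholly inside the wider one in 60.6% of members, against 68.2% of regions of all 3 libraries. A single D3 peak and a single E4 peak made up 5218 members, or 99.9%. Across members, which come from 1 D3 and 1 E4 library, the −log10 q of both clones had a Spearman rho of 0.379, against 0.814 across regions of all 3 libraries; within the weakest regions, defined next, the values were 0.200 and 0.0872.

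Strength ordered the share without a WT peak. Each region of both clones was given the lower of its D3 and E4 percentile ranks, and the regions were divided into 10 deciles of that rank. Since the D3 rank was the higher one in most regions, the lower rank was mostly that of E4. Strength in D3 was therefore not fully matched within a decile. In the weakest decile 58.2% lacked a WT peak, and the share fell to 38%, 24.8%, 12.7%, 5.50%, 2.09% and 0.298% over the next deciles. In the strongest 3 deciles 0 of 11075 regions lacked one (exact 95% upper limit 0.0333%). The weakest 3 deciles held 4466 members, or 85.5%, and deciles 4 to 7 held the other 759. Of the members, 587 reached a −log10 q of 5 in both clones (11.2%), 88 reached 8 and 20 reached 10.

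**Figure D1:**
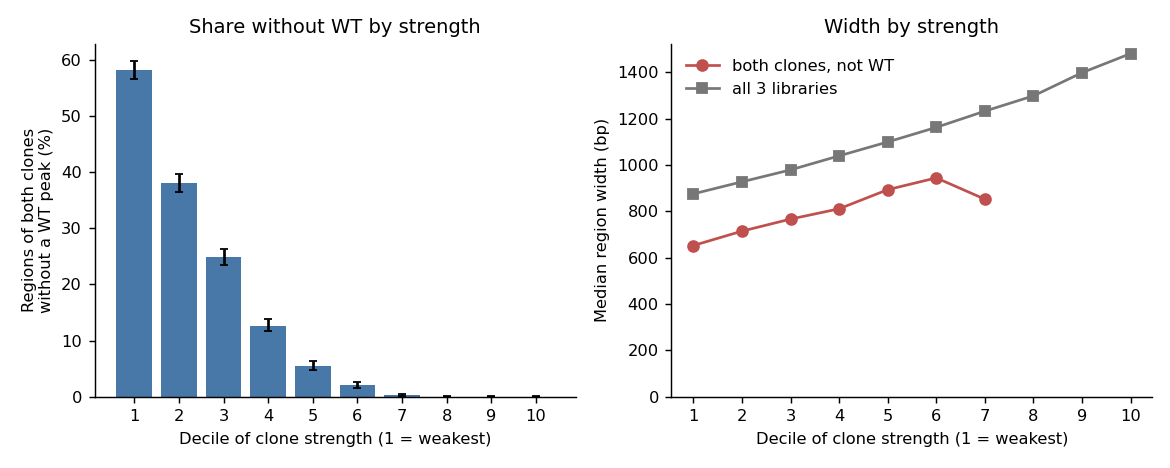
Left, share of regions of both clones without a WT peak (%, bars, with exact 95% intervals) in each decile of clone strength; right, median region width (bp) of members and of regions of all 3 libraries in the same deciles. The share falls from 58.2% to 0, and members are narrower than regions of all 3 libraries in each of the 7 deciles that hold both. Width spans all merged peaks, so only regions of all 3 libraries can be widened by a WT peak.

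Width remained lower within a decile of strength. Here and above, the width of a region spans all its merged peaks. A WT peak can therefore widen regions of all 3 libraries but not members, so part of this difference is fixed by the rule. In the weakest decile the median was 653 bp for members and 876 bp for regions of all 3 libraries; in the fourth it was 811.5 and 1040 bp, and in the seventh 853 and 1233 bp. Within the weakest 3 deciles, the D3 peak on its own had a median width of 638 bp in members and 860 bp in regions of all 3 libraries. The E4 peak had 415 and 497 bp. These single peaks were not matched for D3 strength.

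The members with the highest lower rank lay in a varied set of genes. Here and below, genes were placed on hg19 from general knowledge and not from an annotation, so which gene a region lies in or beside is approximate near gene ends. The strongest, chr3:182428047-182429169 (hg19), was 1123 bp wide and lay between SOX2 and ATP11B, a lipid flippase gene. Its fold enrichment was 9.15 in D3 and 8.53 in E4, its percentile ranks were 69.0 and 67.3, and a WT peak lay 2.40 kb away. The second, chr14:54413204-54413829, lay within 10 kb of BMP4, which encodes a secreted growth factor of the BMP family. Its D3 peak had a fold of 7.32 and its E4 peak one of 8.35, and its nearest WT peak was 16.1 kb away. BMP4 had no other region than members in its window, since the second one, chr14:54430118-54430922, was also a member, with weaker folds of 3.09 and 3.88.

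The third, chr10:103048088-103048667, lay between LBX1, a homeobox gene of muscle and neuron precursors, and BTRC, which encodes the F-box protein that marks β-catenin for degradation. Of the 20 strongest it differed most between the clones, with a percentile rank of 90.2 in D3 and 64.5 in E4. The fourth, chr10:68691021-68691974, lay inside both LRRTM3, a synaptic adhesion gene, and CTNNA3, an α-catenin gene that contains it, with folds of 7.83 and 8.75. The fifth, chr15:102514728-102516706, lay in WASH3P, a pseudogene with close copies at other chromosome ends, so its reads cannot be assigned to it with certainty.

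Ranks 6 to 20 had lower percentile ranks of 62.9 down to 58.3. Inside genes lay chr2:84857971-84858714 in DNAH6 (a dynein heavy chain), chr1:86845571-86846478 in ODF2L, chr12:95927988-95928736 in USP44 (a deubiquitinase) and chr18:67304104-67304565 in DOK6. The region chr7:106842044-106842896 lay in HBP1, a transcriptional repressor gene, at the end of COG5. Further regions inside genes were chr10:62194080-62194828 in ANK3 (ankyrin-G), chr16:2835011-2836273 in PRSS33 (a serine protease), chr9:4228323-4229412 in GLIS3 (a zinc-finger transcription factor) and chr11:96126602-96127584 at the end of JRKL. Between genes lay chr7:140192506-140193562 (MKRN1 and DENND2A), chr6:75648810-75649744 (CD109 and COL12A1) and chr3:145904968-145905915 (PLOD2 and PLSCR4). The region chr1:201431995-201432683 lay beside PHLDA3 and chr5:171284990-171286025 beside FBXW11, the gene of the second β-catenin-directed F-box protein. The region chr11:36839688-36840970 lay in the desert between IFTAP and LRRC4C.

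The 5 widest members were weak as well as broad. They were chr14:69182037-69185835 between RAD51B and ZFP36L1 (3799 bp), chr6:139694671-139698162 over an end of CITED2 (3492 bp), chr12:2904555-2907862 in FKBP4 (3308 bp), chr12:88971447-88974740 over an end of KITLG (3294 bp) and chr22:21567369-21570542 (3174 bp). CITED2 encodes a transcriptional co-regulator and KITLG the ligand of the KIT receptor. The CITED2 region had folds of 3.27 in D3 and 4.0 in E4, and the KITLG region 5.46 and 3.55. The percentile ranks of these regions were 6.55 and 44.6 in D3 and 14 and 16.3 in E4.

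Since a broad region overlay the 5′ end of CITED2 and of KITLG, and a member overlay that of KRT20, the 250 bases before these starts are shown from RefSeq (GRCh38.p14, minus strand; the first of 3 annotated starts for CITED2). Of the 4 genes looked up, 3 matched the promoter table; EPCAM did not. Capitals mark GGGCGG on either strand, a GC-box motif that 42.6% of 35116 promoters of this length hold. The search for GGNGGCAG, a core of the CTCF motif held by 13.4% of these promoters, found no match in them on either strand. These sequences are the annotated promoters, not the bases under the peaks, since no genome of the files' build was used here.
KITLG: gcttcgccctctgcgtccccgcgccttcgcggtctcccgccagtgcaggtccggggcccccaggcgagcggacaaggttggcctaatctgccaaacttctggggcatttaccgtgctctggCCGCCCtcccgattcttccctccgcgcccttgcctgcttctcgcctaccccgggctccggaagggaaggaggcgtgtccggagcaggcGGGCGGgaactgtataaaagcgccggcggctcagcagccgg
CITED2: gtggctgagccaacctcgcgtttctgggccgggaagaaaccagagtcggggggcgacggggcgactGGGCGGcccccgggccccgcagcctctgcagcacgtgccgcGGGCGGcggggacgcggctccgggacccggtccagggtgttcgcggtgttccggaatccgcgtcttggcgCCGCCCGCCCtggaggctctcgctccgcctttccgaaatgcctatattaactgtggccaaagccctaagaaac
KRT20: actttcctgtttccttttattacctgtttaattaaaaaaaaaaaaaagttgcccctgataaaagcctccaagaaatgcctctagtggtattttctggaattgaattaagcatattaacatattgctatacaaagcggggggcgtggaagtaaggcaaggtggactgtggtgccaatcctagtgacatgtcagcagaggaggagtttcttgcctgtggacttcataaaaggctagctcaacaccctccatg

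The KITLG and CITED2 promoters were rich in G and C, at 69.2% and 70.0% of bases, with 26 and 30 CpG dinucleotides. The KRT20 promoter had 41.2% and 2, against a median of 58.0% and 11 over all promoters of the table.

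Members were spread unevenly over the chromosomes. The share of regions of both clones without a WT peak was highest on chromosome 13, at 21.6% (185 of 855), followed by chromosome 4 at 19.6% (383 of 1951), chromosome 18 at 17.7% and chromosome 6 at 17%. It was lowest on chromosome 19, at 8.18% (112 of 1370), followed by chromosome 17 at 9.14%, chromosome 8 at 9.75%, chromosome 15 at 10.6% and chromosome 16 at 11.1%. The interval lay above the genome's share on 6 of 22 chromosomes and below it on 6. Among the weakest 3 deciles, chromosome 13 still had 47.6% and chromosome 4 46.5%, against 33.6% on chromosomes 17 and 19 and 40.3% over all.

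**Figure D2:**
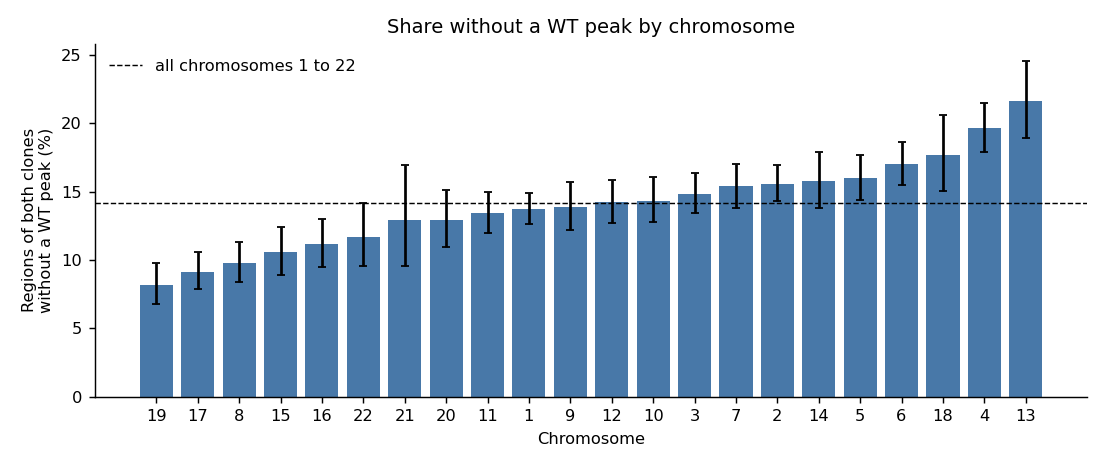
Share of regions of both clones without a WT peak (%, with exact 95% intervals) on each of the 22 autosomes. Chromosome 13 is highest at 21.6% and chromosome 19 lowest at 8.18%, against 14.2% over all.

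Across the 22 chromosomes the share had a Spearman rho of −0.726 with the number of protein-coding genes per Mb. Within the weakest 3 deciles it was −0.532. Over all strengths and the 21 chromosomes other than 8, rho was −0.861. That omission was not planned, and it removes a chromosome that goes against the trend, with 4.88 genes per Mb and a share of 9.75%. All points share the same 3 libraries. Members per Mb ranged from 1.10 on chromosome 8 to 2.68 on chromosome 22, and gene-rich chromosome 19 (1.90) stood near gene-poor chromosome 13 (1.93). Regions of both clones per Mb were 23.3 on chromosome 19 and 8.92 on chromosome 13: the members were about equally dense on both, while the shared regions were not. On chromosome 8, 8q had 7.99% (90 of 1126, and 20.8% in the weakest 3 deciles). The short arm 8p had 13.5% (71 of 525, and 42.1% in the weakest 3 deciles). The low share of 8q lay in its distal part. In the bins described below, the share was 20.2% from 50 to 60 Mb and 10.6% from 60 to 70 Mb. It was 13.5% from 70 to 80 Mb and 11.7% from 80 to 90 Mb. Between 90 and 150 Mb it ranged from 2.04% (140 to 150 Mb) to 8.54% (110 to 120 Mb). On chromosome 4 the long arm had 21.5% and the short arm 14.7%.

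In 10 Mb bins holding at least 50 regions of both clones, the share ranged from 2.04% to 49% over 268 bins. The highest was 49% (25 of 51) on chromosome 4 from 60 to 70 Mb, followed by 34.4% on chromosome 1 from 190 to 200 Mb, 33.9% on chromosome 1 from 80 to 90 Mb, 33.3% on chromosome 11 from 100 to 110 Mb and 32.5% on chromosome 18 from 60 to 70 Mb. The lowest were 2.04% (3 of 147) on chromosome 8 from 140 to 150 Mb, 2.44% (2 of 82) on chromosome 8 from 130 to 140 Mb, 4.85% on chromosome 15 from 70 to 80 Mb, 4.97% on chromosome 10 from 100 to 110 Mb and 5.11% (7 of 137) on chromosome 8 from 120 to 130 Mb. The interval lay above the genome's share in 33 bins and below it in 32.

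The WT library's strength in the shared regions of each bin was compared with that of the clones, by ranking all regions of all 3 libraries within each library. In the bin of chromosome 8 from 130 to 140 Mb the median shared region ranked 15 percentile points higher in WT than in the mean of the clones, from 140 to 150 Mb 10.8 points and from 120 to 130 Mb 8.29 points. In the bins from 130 to 150 Mb WT ranked higher than each clone, by 16.8 points against D3 and 14.2 against E4 from 130 to 140 Mb and by 10.9 and 10.7 from 140 to 150 Mb. From 120 to 130 Mb the difference was 3.92 points against D3 and 12.8 against E4, and in the 3 bins from 90 to 120 Mb it was 0.859, 1.14 and 0.133 against D3 and 12.1, 12.5 and 13.3 against E4. Over the 268 bins, the share had a rho of −0.340 with this difference and of −0.748 with the median strength of the clones' regions. In the 67 bins with the highest shares the median share was 22% and WT ranked lower in 50 of them, with a median difference of −1.17 points; in the 67 with the lowest it was 8.71%, WT lower in 30, and the difference 0.192 points. The part of this local difference in the share was not tested. The 4418 shared regions that lay nearest to a member differed by a median of −0.261 points (WT less the clones), and WT ranked lower in 51.1% of them, against 50.0% over all shared regions.

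**Figure D3:**
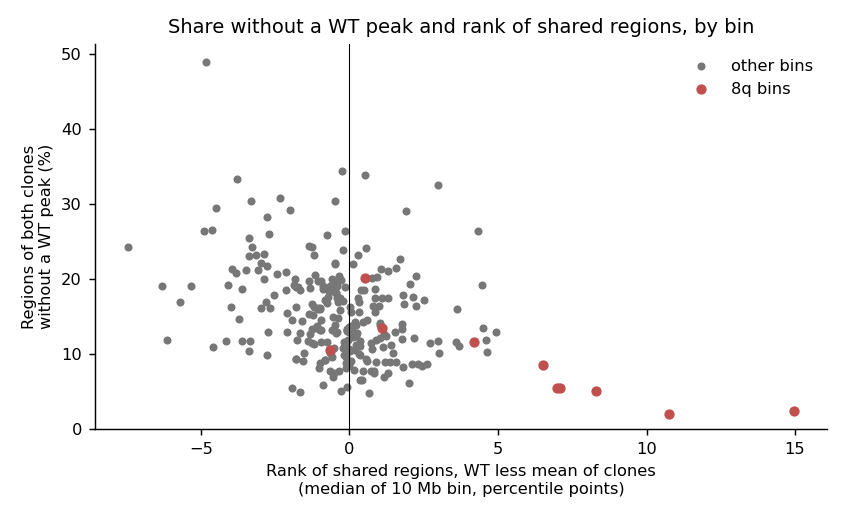
Each point is a 10 Mb bin: horizontal, median rank of regions of all 3 libraries in WT less the mean of the clones (percentile points); vertical, share of regions of both clones without a WT peak (%). Bins of 8q (red) reach 15 points with a share of 2.44%, and the highest share is 49%.

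The share without a WT peak was also counted by the number of shared regions nearby. Shared regions make up the rest of its denominator, so a higher share where they are sparse is in part built in and is given as description only. Within the weakest decile, members had a median of 13 such neighbours and regions of all 3 libraries 14. Of the 2186 regions of both clones with 0 to 4 regions of all 3 libraries within 500 kb on either side, 667 lacked a WT peak (30.5%). With 5 to 9 such neighbours the share was 17.6%, with 10 to 14 it was 14.8%, with 15 to 19 12.8%, with 20 to 29 10.2% and with 30 or more 8.66% (348 of 4017). Within the weakest 3 deciles it went from 50.6% to 35.8% between the sparsest and the densest class, and in deciles 4 to 7 from 9.57% to 4.08%.

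**Figure D4:**
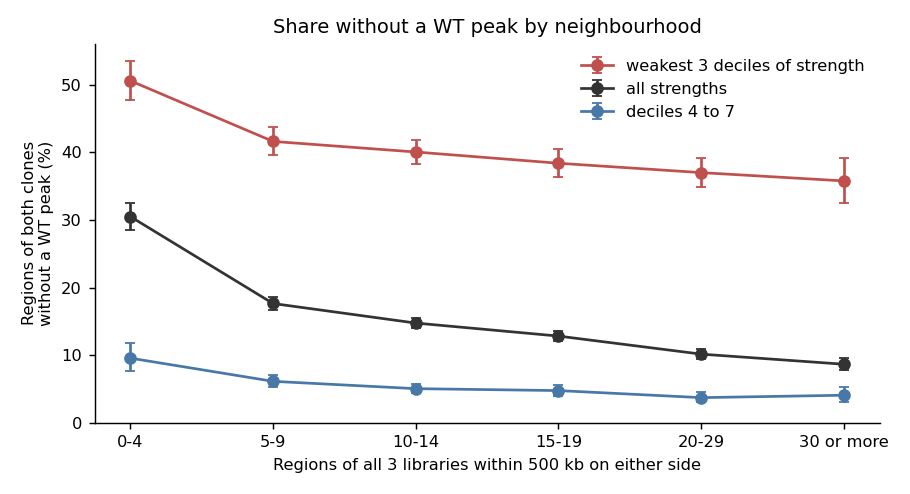
Share of regions of both clones without a WT peak (%, with exact 95% intervals) by the number of regions of all 3 libraries within 500 kb on either side, for all strengths, the weakest 3 deciles and deciles 4 to 7. Over all strengths it falls from 30.5% to 8.66%.

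The distance to shared regions was compared over all strengths and within deciles. The median distance from a member to the nearest region of all 3 libraries was 25.8 kb (quartiles 9.20 and 62.1 kb), against 17.7 kb between regions of all 3 libraries, 24.2 kb for regions of D3 and WT and 24.9 kb for regions of D3 only. Within deciles the gap to regions of all 3 libraries was smaller, at 25.8 against 23.6 kb, 24.8 against 21.6 kb and 28.1 against 21.9 kb in the weakest 3 deciles. In stretches of at least 500 kb between neighbouring regions of all 3 libraries lay 615 members, or 11.8% (10.9% to 12.7%), against 14.4% of regions of D3 and WT and 12.4% of regions of D3 only. Shared regions bound these stretches and so cannot lie in them. Centromere gaps were left in the stretches and in all distances between regions. On both measures members lay close to the regions of D3 and WT and of D3 only.

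The nearest member to a member was a median of 143 kb away (58.4 to 304 kb), while regions of D3 and WT lay 181 kb from their nearest like. Such distances depend on the number of regions, 5225 against 3905, so they do not show closer spacing of members. Within 10 kb of another member lay 320 members (6.12%), within 100 kb 2022 (38.7%), and 142 were over 1 Mb from any other. In the order of all regions, of which members made up 8.95%, 4142 members stood alone (79.3%) and 408 pairs stood next to each other. There were also 67 runs of 3, 14 of 4 and 2 of 5. Some runs arise from that share alone, and how many was not tested. One run of 5, chr12:90557573-91089682, spanned 532 kb between ATP2B1, a plasma-membrane calcium pump gene, and CCER1. The other run of 5, chr6:123701389-124099363, spanned 398 kb from TRDN, which encodes triadin of the muscle calcium-release complex, towards NKAIN2.

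Of the 14 runs of 4, chr2:146677007-147170870 (494 kb, between ZEB2 and ACVR2A) and chr11:97326035-97814852 (489 kb, between JRKL and CNTN5) lay in gene-poor DNA. How many of the others did was not counted. The most compact run of 4, chr15:30422184-30455422, spanned 33.2 kb. In the order of regions called in both clones alone, a count added after the values were seen, 8 members followed each other over 1784 kb at chr4:61066533-62850670, which reaches into ADGRL3, a synaptic adhesion receptor gene. There were 5 runs of 6. Those with the widest spans lay at chr12:86348658-87738976 around MGAT4C and chr4:67035047-67988320 between EPHA5 and CENPC.

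The most isolated members had no other region of any kind nearby. The first, chr13:54356253-54357040, was 531 kb from the next region and lay between OLFM4 and PCDH17, with folds of 4.82 in D3 and 5.24 in E4. The second, chr6:92832138-92833246, was 521 kb from the next, between MAP3K7 and EPHA7, an ephrin receptor gene, with folds of 6.49 and 5.83. The others were chr9:8895744-8896180 in PTPRD (409 kb), chr20:14929059-14929521 in MACROD2 (396 kb) and chr9:65613711-65614397 (355 kb).

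A WT peak lay a median of 22.2 kb from a member (quartiles 8.34 and 54.6 kb), within 10 kb of 1515 members (29%) and beyond 100 kb from 616 (11.8%). Only 20 lay within 1 kb. The nearest cases inside the rule were chr6:151701870-151702397, 0.019 kb from a WT peak, chr10:31997640-31998355 at 0.091 kb, chr5:6788982-6789855 at 0.119 kb, chr4:85088315-85088622 at 0.239 kb and chr2:201566967-201568847 at 0.356 kb. Just outside it were chr7:75947926-75948861, where a WT peak overlapped the clone peaks by 10 bp, chr3:11014896-11015746 (33 bp), chr2:175387054-175388026 and chr3:180348634-180349783 (48 bp each) and chr9:124049664-124050488 (60 bp). Overlaps under 50 bp made up 4 of the 31692 regions of all 3 libraries. A stricter overlap moved the count more: where a library had to cover 50% of the merged region to count, 11218 regions were counted. A WT peak that covered less than 50% was then taken as absent, so these regions could still hold one.

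Within gene deserts a larger share of the clones' regions lacked a WT peak than elsewhere. In 45 listed deserts of 1.16 to 4.92 Mb, 115.8 Mb in all, lay 211 members (4.04%), and 43 of the deserts held at least 1. Of the 548 desert regions with peaks from each clone, 38.5% had none in WT (34.4% to 42.7%), against 13.8% elsewhere. Within the weakest 3 deciles the shares were 59.7% and 39.8%, and in deciles 4 to 7 they were 13.1% and 5.03%; in the strongest 3 deciles the count was 0 of 34. The share was above that of the genome in 41 deserts, and its interval in 19.

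Per Mb, members were nearly as frequent in deserts as outside them, with a ratio of 0.957 over the 16 chromosomes that hold a listed desert. The ratio was 0.266 for regions of all 3 libraries, 0.251 for regions of D3 and WT and 0.240 for regions of WT only. It was 0.648 for regions of D3 only and 0.693 for regions of E4 only. The list of deserts was written after bins, runs and the strongest and widest members had been seen. In the 24 deserts that overlap none of those loci, 90 of 275 regions of both clones lacked a WT peak, or 32.7% (27.2% to 38.6%). The ratio of members per Mb was 0.773 there, against 0.276 for regions of all 3 libraries and 0.633 for regions of D3 only. For regions of E4 only it was 0.273, from 5 regions.

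**Figure D5:**
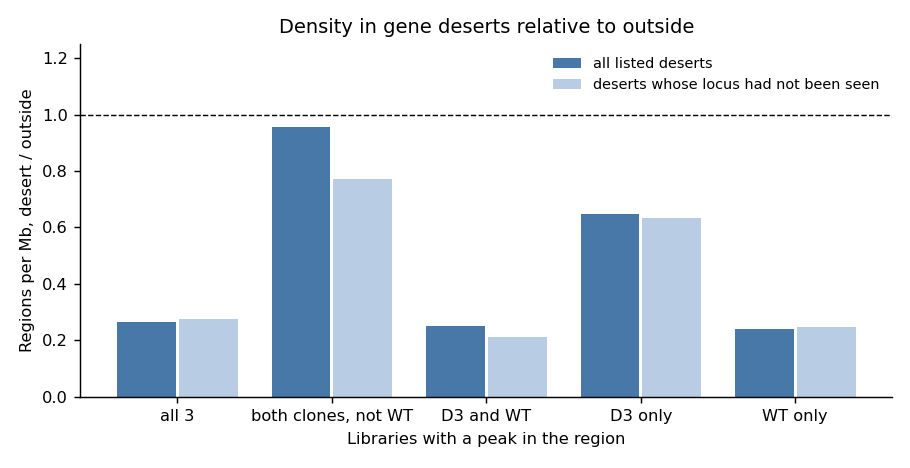
Ratio of regions per Mb in gene deserts to regions per Mb outside them (bars from 0; dashed line, equal density), by the libraries with a peak, for all 45 listed deserts and for the 24 whose locus had not been seen. Regions of both clones without WT stand at 0.957 and 0.773, regions of all 3 libraries at 0.266 and 0.276 and regions of D3 only at 0.648 and 0.633.

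The most members, 11 each, were found in 5 deserts. Between ADGRL2, an adhesion receptor gene, and TTLL7, 11 of 14 regions of both clones lacked a WT peak. The counts were 11 of 19 between B3GALT2 and KCNT2, 11 of 20 between OTOL1 and SI, 11 of 21 between the cadherin genes CDH9 and CDH6 and 11 of 22 between PLA2G4A and BRINP3. Between ADGRL4 and ADGRL2 there were 8 of 14, between ZEB2 and ACVR2A 8 of 21, between AGA and TENM3 8 of 32, between ATP2B1 and CCER1 7 of 11, between SLITRK6 and SLITRK5 7 of 11 and between SPRY2 and SLITRK1 7 of 20. A further 12 deserts held 5 or 6 members and 20 held 1 to 4. The deserts GOT2 to CDH8 (0 of 4) and TUSC1 to CAAP1 (0 of 8) held none.

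Long genes for adhesion and synapse proteins, which themselves span gene-poor DNA, also held many members. With 10 kb added on either side, 23 of 30 such genes held 55 members, 27.2% of their 202 regions of both clones (21.2% to 33.9%); within the weakest 3 deciles it was 50.0% (39.5% to 60.5%), an interval that includes the 40.3% over all. CTNNA3 held 6 of 13, MACROD2 5 of 13, WWOX, an oxidoreductase gene at a common fragile site, 5 of 9, and CTNNA2, an α-catenin gene of neurons, 4 of 11. CDH12, DLG2, FHIT and ROBO1 held 3 each, and CNTN5, CSMD1, GPC5, LRP1B, NEGR1 and ROBO2 were among those that held 2 each. CADM2, CDH13, ERBB4, LSAMP, PCDH15, PTPRD and SGCZ held 1 each, and CNTN4, CNTNAP2, CSMD3, DAB1, GPC6, NRXN3 and PCDH9 held none.

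In CTNNA2, 3 members stood within a short distance of each other at chr2:80082462-80083053, chr2:80087353-80088299 and chr2:80103242-80104001. Their folds were 4.57, 5.39 and 6.11 in D3 and higher in E4, at 5.79, 6.69 and 7.51. The fourth, chr2:80209642-80210285, had the reverse order, with 8.96 in D3 and 4.52 in E4.

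Genes of developmental transcription factors and signals held members at about the background share, at 14 of 106 regions of both clones (13.2%; 7.41% to 21.2%) over 10 of 48 genes or clusters. Within the weakest 3 deciles it was 13 of 25, or 52.0% (31.3% to 72.2%), an interval that includes the 40.3% over all. BMP4 held 2 of 2, RUNX2 2 of 4, HOXC 2 of 6 and PAX5 2 of 12. FOXA1, HOXB, IRX5, PAX6, SHH and ZIC2 held 1 each; at IRX5, PAX6 and ZIC2 it was the only region called in both clones. HOXA and HOXD, with 8 and 6 regions of both clones, held none.

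Among 10 colon epithelial genes, 3 of 17 regions of both clones were members (17.6%; 3.8% to 43.4%). KRT20, a keratin of mature enterocytes, held chr17:39041177-39042018 over its start, with folds of 3.34 in D3 and 4.35 in E4, and chr17:39029677-39030090, with 3.06 and 3.47. EPCAM, an epithelial adhesion gene, held chr2:47596223-47596767 over its start, with folds of 2.67 in D3 and 4.65 in E4. All 3 stood low in the D3 list, at percentile ranks of 8.61, 2.25 and 0.0578, while their E4 ranks were 18.3, 4.19 and 24.4.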

How the data were processed

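CTCF peak lists of 3 libraries from HCT-116 cells were used; the 3 libraries made without antibody were not used. The authors deposited 1 broadPeak list per library, in which, per the broadPeak layout, each peak has a fold enrichment (a ratio over the caller's background), a −log10 p-value and a −log10 q-value. The −log10 p was not used. Per the submitters' processing notes, CASAVA 1.8.2, Picard 2.23.1, bedtools 2.29.2, MACS2 2.2.7.1 and hg19 were named, without their roles; the aligner, peak settings and use of a control are not given in the sources used here. Both scores depend on their own library, so percentile ranks within a list were compared.

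Peaks were merged with an overlap of 1 bp or more (Python 3.11.15, numpy 2.4.6, pandas 2.3.3, scipy 1.17.1, figures with matplotlib 3.10.9), and the merge was checked base by base on simulated intervals. Shares have exact 95% Clopper-Pearson intervals. Neighbours were counted within 500 kb on either side. Gene windows (10 kb added on either side) and deserts were placed on hg19 from general knowledge, with no annotation of that build; 138 of 142 symbols were found in RefSeq GRCh38.p14, all on the same chromosome, with the same order on 19 of 19 chromosomes. RefSeq has the 2 flanking genes next to each other for 41 deserts, and only uncharacterised genes between them for 4.

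Regions named are the 20 strongest by the lower rank, 5 widest, 5 longest runs, 5 most isolated, 5 highest and 5 lowest bins, every listed gene or desert with a member, and the 5 members nearest to and shared regions least overlapped by a WT peak. A few items that this rule names are not reported here. The members and lists were chosen with earlier results of these data known. The deserts were listed after extreme bins, runs and strong or wide members had been seen, and the deserts clear of those loci were set apart after the desert values were known. The neighbouring genes named, the runs among regions of both clones and the promoters shown were chosen after seeing the values. Leaving chromosome 8 out of a correlation was not planned. Alternatives tried were a −log10 q minimum, lists of equal length, 50% coverage of the region, merging within 1 kb, a minimum in the clones alone, X and Y, longer stretches and shortened deserts.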

Additional observations from a re-analysis of the deposited data

Results flagged for a closer look

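Chromosomes X and Y lie outside the rule for members, and regions of both clones without a WT peak were also called there. There were 380, of which 378 lay on X among 1181 regions of both clones, a share of 32.0% (29.4% to 34.8%) against 14.2% on the autosomes. The WT list had 910 peaks on X, D3 1827 and E4 1223. On Y, D3 had 5 peaks, E4 2 and WT 0, and the 2 regions shared by the clones had no WT counterpart.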

How the results depend on the processing

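Of 39 alternative values, 13 stayed within 1.5 times (counts) or within the counting interval (other values) and 26 moved. Requiring −log10 q to reach 5 in every list also dropped weaker WT peaks, so a region counted as without WT could still hold one. There were then 6606 such regions, or 26.7% of those of both clones. Their median width was 1046 bp and their median distance to a shared region 40437 bp. The share in stretches was 22.9% and the number in deserts 115. With lists of equal length there were 2621 regions (8.06%), 788 bp wide, 29244 bp away, 12.7% in stretches and 101 in deserts. With 50% of the merged region covered there were 11218 (38.1%), 1000.5 bp wide, 41706 bp away and 21.5% in stretches. Under that setting, too, a region counted as without WT could hold a WT peak, one that covered less than 50%. With the minimum of 5 in the clone lists and the whole WT list there were 587 (2.37%), 878 bp wide, 40145 bp away, 17.7% in stretches and 22 in deserts. With X and Y the share was 14.7% and that in stretches 13%. Stretches of 1 Mb or more held 4.78%, and the deserts clear of loci seen earlier, an alternative chosen after seeing the data, held 90. The cause of these changes was not tested, beyond the smaller or larger sets that each setting builds. Merging within 1 kb moved none of the 6 values. The share in deserts was above that elsewhere in each of these settings that rebuilt the regions, at 51.6% against 26.5%, 24.8% against 7.85%, 63.6% against 37.7%, 38.6% against 13.8%, 9.87% against 2.30% and, with X and Y, 38.5% against 14.4%. Chromosome 4 in place of 13 was highest with the minimum in every list and with 50% coverage. The lowest was 17 in place of 19 under both, and 22 (1.08%) with the minimum in the clone lists alone. No paired analysis was possible because each population has 1 library. Weak peaks near the caller's limit bound what these lists can show, and an absent WT peak is not absent binding.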
